A study of Mus musculus with 8 samples.

Results

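The genes described here are 8 that mark tendon or cartilage: the transcription factor genes Scx, Mkx and Sox9, the membrane glycoprotein gene Tnmd, the secreted factor gene Angptl7, and the matrix genes Cilp, Cilp2 and Acan. They were chosen by symbol, and 8 of 8 were found among the 18877 gene symbols of the normalized count table. Of these, 7 were lower in mfn2-/- than in wild-type activated muscle stem cells (ASCs) and 1, Sox9, was higher. Over all genes tested, 6.36% were lower and 3.99% higher by an adjusted p under 0.05. Tnmd, Angptl7, Cilp and Cilp2 were abundant in wild-type ASCs and at 0.0912% to 1.51% of that level in mfn2-/- ASCs, and Acan had no read there. Scx was lower and Sox9 higher by margins that depended on single libraries, and the other 6 genes kept their calls under all 21 alternatives that used 7 or 8 libraries.

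RNA was sequenced from ASCs, the stem cells of skeletal muscle after they leave quiescence in response to injury. There were 4 wild-type and 4 mfn2-/- libraries. Mice of both groups carried mito-Dendra2, a fluorescent protein sent to mitochondria, under a Pax7-Cre(ERT2) driver, which acts in Pax7-expressing muscle stem cells after tamoxifen. In the study, mfn2-/- animals combined that driver with conditional knockout alleles of Mfn2, the gene of an outer membrane protein that fuses mitochondria. All animals received tamoxifen at 75 mg/kg on 5 days, then 50 uL of 1.2% BaCl2 into the tibialis anterior muscle 2 days after the last dose. Cells were sorted 2 days after that injury as CD34-, Dendra2+ and DAPI-. Age and sex were not given in the sources used here. The labels do not say whether replicates came from separate mice, so p-values measure the spread between these libraries, which may in part be technical.

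Tendon and cartilage share a developmental root in cells of the skeletal mesenchyme. Scleraxis (SCX), a basic helix-loop-helix factor that binds E-boxes, marks tendon progenitors, and the homeobox factor Mohawk (MKX) promotes tendon maturation and collagen expression. TNMD is a late marker of tenocytes. SOX9 is the master regulator of chondrocytes and drives collagen II and aggrecan genes together with SOX5 and SOX6, and TGF-beta signalling acts on both lineages. Tendon joins skeletal muscle to bone, so both lie side by side in the limb.

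The 8 genes lie on 8 chromosomes. Coordinates are from the GENCODE M21 annotation of GRCm38, while the submitters' processing notes name mm9, and the count table holds none. Scx is at chr15:76457452-76459458 (plus strand), Sox9 at chr11:112782224-112787760 (plus), Mkx at chr18:6934518-7004780 (minus) and Tnmd at chrX:133850980-133865577 (plus). Angptl7 is at chr4:148495183-148500460 (minus), Cilp at chr9:65265180-65280605 (plus), Cilp2 at chr8:69880369-69887687 (minus) and Acan at chr7:79053483-79115099 (plus). Scx lies inside the span of Bop1 and Angptl7 inside that of Mtor, each on the opposite strand with 0 bases of shared exon. Mkx shares 201 exonic bases with AC148004.2 on its own strand, which was not analysed here. Whether strand was used in counting is not given in the sources used here, so reads from the introns or exons of such partners cannot be fully told apart.

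Because 7 of the genes fell together, the stretch upstream of their starts is shown for those that RefSeq (GRCm38.p6) covers and that no annotated exon enters. RefSeq promoters matched 5 of the 8 genes. Each sequence is 220 bases on the coding strand, from 250 to 31 bases before the start, in lower case with each E-box (CANNTG, the letters that factors of the SCX and MyoD class bind) in capitals.

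Tnmd, chrX:133850758-133850977, plus strand: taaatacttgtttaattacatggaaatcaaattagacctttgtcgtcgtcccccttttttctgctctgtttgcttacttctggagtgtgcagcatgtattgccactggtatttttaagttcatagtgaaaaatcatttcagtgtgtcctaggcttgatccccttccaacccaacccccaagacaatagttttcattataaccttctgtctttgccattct
Angptl7, chr4:148500493-148500712, minus strand: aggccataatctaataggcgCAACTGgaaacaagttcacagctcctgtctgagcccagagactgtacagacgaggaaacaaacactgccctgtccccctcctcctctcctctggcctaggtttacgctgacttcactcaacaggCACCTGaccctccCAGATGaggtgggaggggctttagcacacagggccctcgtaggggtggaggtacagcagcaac
Cilp, chr9:65264930-65265149, plus strand: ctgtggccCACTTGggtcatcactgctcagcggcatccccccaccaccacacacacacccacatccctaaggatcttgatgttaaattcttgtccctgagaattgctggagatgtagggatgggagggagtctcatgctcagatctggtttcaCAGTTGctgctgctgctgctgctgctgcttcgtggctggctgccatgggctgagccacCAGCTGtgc
Acan, chr7:79052976-79053195, plus strand: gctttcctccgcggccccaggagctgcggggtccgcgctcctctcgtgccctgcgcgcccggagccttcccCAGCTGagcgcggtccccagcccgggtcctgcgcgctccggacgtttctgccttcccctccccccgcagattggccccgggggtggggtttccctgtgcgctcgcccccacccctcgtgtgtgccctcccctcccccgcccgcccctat

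The windows of Cilp and Angptl7 held 3 E-boxes each, that of Acan 1 and that of Tnmd 0, and the Cilp2 window, which overlaps an annotated exon, held 1. An E-box was present in 62.1% of all 32851 RefSeq promoter windows of this length. The letters ACAAT, a core that SOX factors bind, read on both strands, occurred once each for Tnmd and Cilp2 and in 25.6% of all windows. The letters CAGAC, a SMAD binding element, occurred 2 times each for Angptl7 and Cilp2 and in 38.5% of all windows. ACGTG and GCGTG, the cores of hypoxia response elements, were found only as 1 GCGTG for Cilp2, against 14.4% and 25.1% of all windows. A match to these letters is a description of the sequence, not a binding site.

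Values below are normalized read counts in replicates 1 to 4, means are given ± SD (n = 4), and changes are mfn2-/- minus wild-type on the scale of log2(value + 1), on which the fold of a weak gene comes out too small. Genes were tested with limma, with p-values adjusted by the Benjamini-Hochberg method over the 11754 genes with a mean of at least 10. In bulk RNA, fewer cells that express a gene and less of its RNA per cell cannot be told apart. The libraries held between 1880464 and 7508215 reads, each read standing for 0.534 to 2.27 normalized counts. mfn2-/- replicate 4 stood apart, with 9646 genes detected against 12613 to 15270 in the other 7 libraries. Reads from Y-linked genes were present in 2 libraries of each group (replicates 3 and 4 of wild-type, 1 and 2 of mfn2-/-) and absent from the other 4, so changes are also given within each kind of library. The targeted gene, Mfn2, measured 229 ± 19.98 in wild-type and 126 ± 31.4 in mfn2-/- ASCs, without overlap (log2 change -0.88, limma adjusted p 0.0848, two-sided exact permutation p = 0.0286). Hif1a, the oxygen-regulated transcription factor gene that the study followed, measured 812 ± 195 and 2887 ± 433.

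By adjusted p under 0.05, 7 of the 8 genes were lower, where 6.36% of all genes tested were, and 1 was higher, where 3.99% were (10.4% in either direction). All genes divided into 748 lower and 469 higher, a balance that turned with upper-quartile scaling (632 lower and 844 higher), under which the 8 genes still gave 7 lower and 1 higher. The groups did not overlap for the 7 lower genes, against 12.2% of all genes tested that were lower without overlap. None was higher without overlap, where 7.36% of all genes were (19.5% in either direction). All 8 passed the filter on low values, but Mkx, Tnmd, Cilp2 and Acan passed only through their wild-type values, so the number of lower genes is a description and supports nothing further. The median change of the 8 was -6.74, beside -0.16 over all genes. Together they took 0.281%, 0.282%, 0.419% and 0.397% of the normalized total of wild-type replicates 1 to 4, and 0.0326%, 0.0328%, 0.0265% and 0.0180% of that of mfn2-/- replicates 1 to 4.

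**Figure D1:**
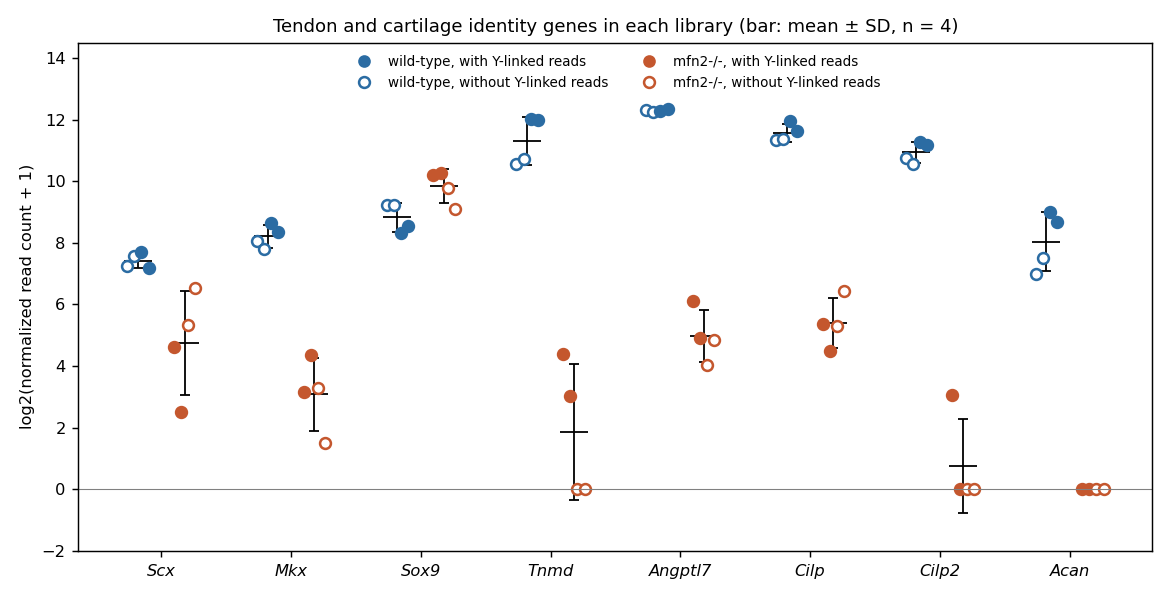
Level of the 8 genes in each library, as log2(normalized read count + 1). Points are libraries (blue wild-type, orange mfn2-/-, filled where Y-linked reads were present), placed by replicate number from left to right, and bars are the mean ± SD of 4. Both groups separate for every gene but Sox9, and Tnmd, Cilp2 and Acan include mfn2-/- libraries at 0.

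Among the transcription factors, Mkx, the Mohawk homeobox gene, fell furthest. It measured 263.8, 220.9, 401.8 and 328.5 in wild-type ASCs and 8.001, 19.8, 8.84 and 1.83 in mfn2-/- ASCs. The highest mfn2-/- library was far under the lowest wild-type library. The mean was 304 ± 78.9 against 9.61 ± 7.45, 31.6-fold lower (log2 change -5.13, SE 0.71, limma adjusted p 0.000558), and 48.8-fold lower without mfn2-/- replicate 2. The change was -4.74 in libraries with Y-linked reads and -5.52 in those without.

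Scx, the gene of the early tendon factor scleraxis, measured 150.1, 189.8, 205.8 and 145.8 in wild-type and 23.3, 4.74, 39.1 and 91.6 in mfn2-/- ASCs. All wild-type libraries lay above all mfn2-/- libraries, but replicate 4 of the latter kept over 90 counts and replicate 2 under 5. The mean fell from 173 ± 29.5 to 39.7 ± 37.4, or 23.0% of wild-type, and the mfn2-/- mean was 22.4 without replicate 4. This is a log2 change of -2.68 (SE 0.75, 95% interval -4.29 to -1.07) with a limma adjusted p of 0.0369. It was -3.88 in libraries with Y-linked reads and -1.48 in those without. The adjusted p rose to between 0.0529 and 0.112 when any single library other than mfn2-/- replicate 4 was left out, and was 0.00489 without that library. Bop1, the ribosome biogenesis gene around Scx, measured 106 ± 23.6 and 80.5 ± 24.7 (log2 change -0.43, limma adjusted p 0.601).

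Sox9 moved the other way. The gene of the chondrocyte regulator measured 598.1, 605.6, 319.3 and 376.1 in wild-type and 1178, 1244, 885.8 and 542.4 in mfn2-/- ASCs. mfn2-/- replicate 4 lay between the wild-type libraries, and the other 3 mfn2-/- libraries lay above all of them. The mean rose from 475 ± 149 to 962 ± 320, 2.03-fold. The log2 change was 1.00 (SE 0.30, 95% interval 0.36 to 1.64) with a limma adjusted p of 0.0484, just inside the threshold, and the two-sided exact permutation test gave p = 0.0857. Within libraries with Y-linked reads the change was 1.80 and within those without it was 0.20. The difference between these, 1.60, had a limma p of 0.00113 and an adjusted p of 0.0652. The call was lost without any 1 of wild-type replicates 2, 3 and 4 or mfn2-/- replicates 1, 2 and 3 (adjusted p 0.0502 to 0.142).

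Tnmd, the gene of tenomodulin, a type II membrane glycoprotein of tendon cells, measured 1517, 1696, 4130 and 4023 in wild-type ASCs. In mfn2-/- ASCs it measured 20.003, 7.11, 0 and 0. Both mfn2-/- libraries at 0 were those without Y-linked reads. The mean fell from 2841 ± 1429 to 6.78 ± 9.43, 419-fold (log2 change -9.47, SE 0.88, limma adjusted p 1.84e-05). Most of the mfn2-/- mean came from replicate 1, without which it was 2.37 and the fold 1199. Wild-type libraries with Y-linked reads averaged 4076 and those without 1606, a difference that did not pass the threshold (limma adjusted p 0.419).

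Angptl7, a secreted angiopoietin-like protein found in tendon, cartilage and cornea, was the most even of the 8 in wild-type ASCs. It measured 5044, 4872, 4996 and 5164 there, with a coefficient of variation of 2.41%. It measured 68.7, 29.2, 15.5 and 27.5 in mfn2-/- ASCs. The mean of 5019 ± 121 fell to 35.2 ± 23.1, 143-fold (log2 change -7.31, SE 0.35, limma adjusted p 2.23e-08). Mtor, the growth-control kinase gene whose span holds Angptl7, measured 539 ± 94.8 and 371 ± 71.8 (log2 change -0.54, limma adjusted p 0.164).

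Cilp, which encodes a cartilage intermediate layer protein that binds TGF-beta, measured 2595, 2656, 3958 and 3141 in wild-type and 40.7, 21.3, 38.3 and 86.1 in mfn2-/- ASCs. Every mfn2-/- library held between 27 and 61 reads, so the gene was weak but detected throughout. The mean fell from 3087 ± 630 to 46.6 ± 27.7, 66.2-fold (log2 change -6.17, SE 0.35, limma adjusted p 1.36e-07).

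Cilp2, its paralogue, had the lowest change of all genes tested on the log2(value + 1) scale, though Acan was lower than Cilp2 by edgeR (log2 change -11.43 against -9.64) and DESeq2 (-10.83 against -9.97). It measured 1731, 1513, 2452 and 2341 in wild-type and 7.33, 0, 0 and 0 in mfn2-/- ASCs. The 11 reads of mfn2-/- replicate 1 were all that the group held. From a mean of 2009 ± 458 to one of 1.83 ± 3.67, the log2 change came to -10.18 (SE 0.75, limma adjusted p 1.57e-06). The paralogues thus differed in what was left, with reads of Cilp in 4 of 4 mfn2-/- libraries and reads of Cilp2 in 1 of 4.

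Acan, the gene of aggrecan, the large aggregating proteoglycan of cartilage, measured 125.1, 179.4, 517.8 and 407.6 in wild-type ASCs and 0 in each of 4 mfn2-/- libraries. Set against the floor of 3 reads per library that a count of 0 allows, it was at least 102-fold lower. Its log2 change was -8.04 (SE 0.97, limma adjusted p 0.000175). Wild-type libraries were the most uneven for this gene, with a coefficient of variation of 60.5% and a 4.14-fold range. Those with Y-linked reads averaged 463 and those without 152 (limma adjusted p of the difference 0.691).

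Within libraries with and without Y-linked reads, the changes of the other genes kept their direction. They were -8.29 and -10.65 for Tnmd, -6.79 and -7.84 for Angptl7, and -6.85 and -5.49 for Cilp. For Cilp2 they were -9.70 and -10.66 and for Acan -8.85 and -7.24. The difference between both kinds of library passed the threshold for 173 of all 11754 genes by limma and for 0 of the 8 described here. An unadjusted p under 0.05 was found for 1416 of all genes and for 3 of the 8 (Sox9, Tnmd and Cilp). With the 4 libraries without Y-linked reads alone, Scx (limma adjusted p 0.401), Mkx (0.104), Sox9 (0.777) and Acan (0.122) did not pass the test. These libraries include the shallowest of each group, wild-type replicate 1 (1880464 reads) and mfn2-/- replicate 4 (2269009 reads). They also hold wild-type replicate 2 (4080836 reads) and mfn2-/- replicate 3 (5050798 reads), so depth and kind of library overlap only in part. What part each has in the lost calls was not tested.

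**Figure D2:**
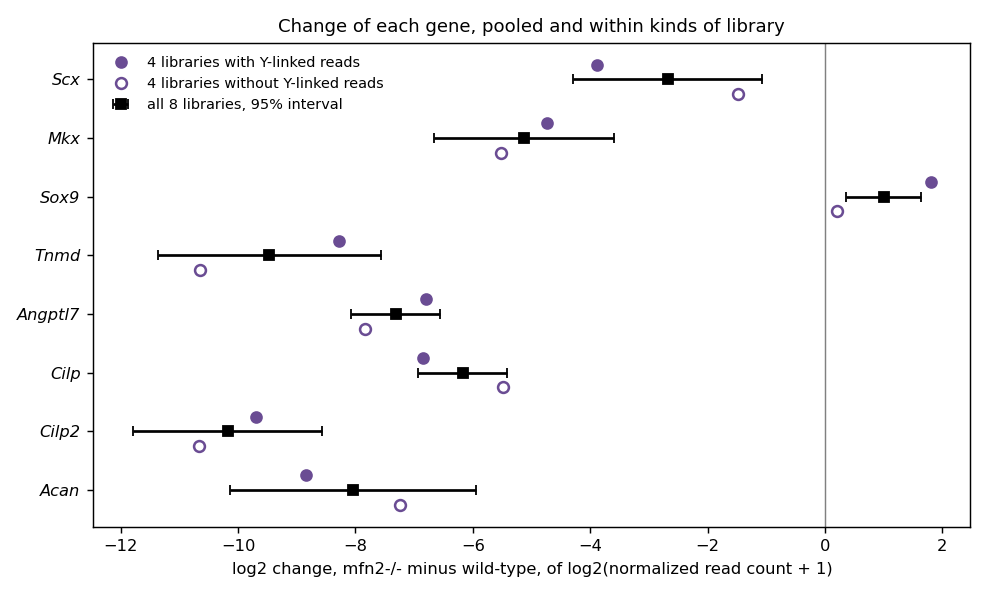
Change of each gene, mfn2-/- minus wild-type, of log2(normalized read count + 1). Squares with bars are all 8 libraries with the 95% interval, filled circles the 4 libraries with Y-linked reads and open circles the 4 without. Every circle lies on the same side of 0 as its square, with Sox9 at 1.80 and 0.20 and Scx at -3.88 and -1.48.

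Per kilobase of annotated exon, the order of levels in wild-type ASCs was Angptl7, Tnmd, Cilp, Cilp2, Sox9, Scx, Mkx and Acan. Angptl7 stood at 2327 ± 56.0 normalized counts per kilobase and Tnmd at 2100 ± 1056, neighbours that did not differ beyond their spread. Cilp followed at 726 ± 148 and Cilp2 at 466 ± 106. Sox9 was at 115 ± 35.9, Scx at 86.1 ± 14.7, Mkx at 74.2 ± 19.3 and Acan at 41.2 ± 24.9, and each of these overlapped its neighbour in the order. In mfn2-/- ASCs the order was led by Sox9 at 233 ± 77.5 per kilobase, with Scx next at 19.8 ± 18.6 and Angptl7 at 16.3 ± 10.7. Cilp was at 11.0 ± 6.52, Tnmd at 5.01 ± 6.97, Mkx at 2.35 ± 1.82, Cilp2 at 0.425 ± 0.850 and Acan at 0. From Scx down, each gene overlapped its neighbour in this order. For Scx the annotated exons merge into 1 block of 2007 bases over its whole span. An intron of a spliced form would be counted in that length, so its level per kilobase may be too low in both groups.

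Over the 8 libraries, the likeness of 2 genes was measured as the root mean square difference of their log2 profiles, each centred on its own mean, so that 0 is identical. Since the groups differ for most of these genes, likeness reflects the size of the change before all else. Among the 8 genes the nearest pairs were Acan with Angptl7 (0.87), Cilp with Angptl7 (0.94) and Tnmd with Cilp2 (0.99). Among the other genes tested, Mkx was nearest to Cacna1g (0.43), Adamts2 and Pcolce, which encode a calcium channel subunit and a pair of proteins that process procollagen. Angptl7 was nearest to Col1a2 (0.42), 4833403I15Rik and Fbn2, and Acan to Pappa2 (0.38), Ptx4 and Fbn2. Tnmd was nearest to Kera (0.75), Col22a1, a collagen of the muscle-tendon junction, and Cpxm2. Cilp2 was nearest to Kera (1.21), Col1a1 and Mfap4, and Cilp to Col6a3 (0.52), LOC100862129 and Dnm1. Scx was nearest to Bloc1s1 (0.51), B4galt2 and Basp1, and Sox9 to Peli1 (0.11), Nup98 and Mpp5.

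Genes of the wider tendon program were read from a list of 22, all in the table. Of these, 17 fell, 1 rose and 4 did not pass the test, where 6.36% of all genes tested fell and 3.99% rose. The median was -5.46 beside -0.16 over all genes. Some that fell, Kera among them, passed the filter only through their wild-type values. The counts and the median of this list are thus a description and support nothing further. Each of its 16 matrix and marker genes fell, with log2 changes of -0.98 to -9.34, among them Col1a1, the main fibrillar collagen of tendon. Col1a1 went from 106037 ± 21896 to 334 ± 124 (log2 change -8.36, limma adjusted p 3.64e-10). Fmod, a collagen-binding proteoglycan, went from 15119, 16695, 25857 and 24797 in wild-type to 54.0, 100.3, 33.9 and 73.3 in mfn2-/- ASCs (log2 change -8.35). Col1a2 changed by -7.79 and Thbs4, a thrombospondin of tendon and muscle matrix, by -6.57. Of its 6 regulators, Eya2 fell by 4.50 on the log2 scale and Egr2 rose by 0.91 (limma adjusted p 0.0274). Among the regulators that did not pass the test were Egr1 (-0.01), Eya1 (0.39) and Six2 (-0.78).

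Of 20 genes of cartilage matrix and SOX9 partners, 18 were in the table and 15 were tested. There 9 fell, 0 rose and 6 did not pass, where 6.36% of all genes tested fell and 3.99% rose. The median was -5.24. Among those that fell, only Col2a1 and Col11a2 would have passed the filter on their mfn2-/- values alone. These counts and the median describe the list and support nothing further. Col2a1, the collagen II gene and a classical SOX9 target, measured 2201, 2122, 5771 and 4957 in wild-type and 20.003, 11.9, 47.2 and 25.7 in mfn2-/- ASCs (log2 change -7.13, limma adjusted p 2.16e-07). Sox9 and Col2a1 thus moved in opposite directions. Col11a2, a fibrillar collagen of cartilage, changed by -6.44, Prg4, the gene of lubricin, by -7.32, and Hapln1, which links aggrecan to hyaluronan, by -7.03. Of the 4 transcription factor genes and partners of SOX9 on the list, 0 passed the test by limma. Trps1 changed by -0.02, Wwp2 by -0.09, Sox6 by -1.35 (SE 0.79) and Sox5 by -0.01 (SE 0.60).

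TGF-beta signalling, read from a list of 16 genes, was divided. By the same test 4 fell, 3 rose and 9 did not pass, where 6.36% of all genes tested fell and 3.99% rose. The median was -0.11, near that of all genes. Tgfbi, a matrix protein induced by TGF-beta, fell by 4.12 on the log2 scale (limma adjusted p 3.98e-06), while Skil, a repressor of SMAD proteins, rose by 1.57 (limma adjusted p 0.00234). Ltbp3, which tethers latent TGF-beta, and Tgfbr2, a receptor, each changed by -1.16. Named after their values were seen, the other genes past the threshold were Tgfb3, which was lower (-1.06), and Smad7 (1.06) and Tgfbr1 (0.83), which were higher. Among those that did not pass were Tgfbr3 (-0.28), Ltbp1 (-0.20) and Smad3 (0.33).

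**Figure D3:**
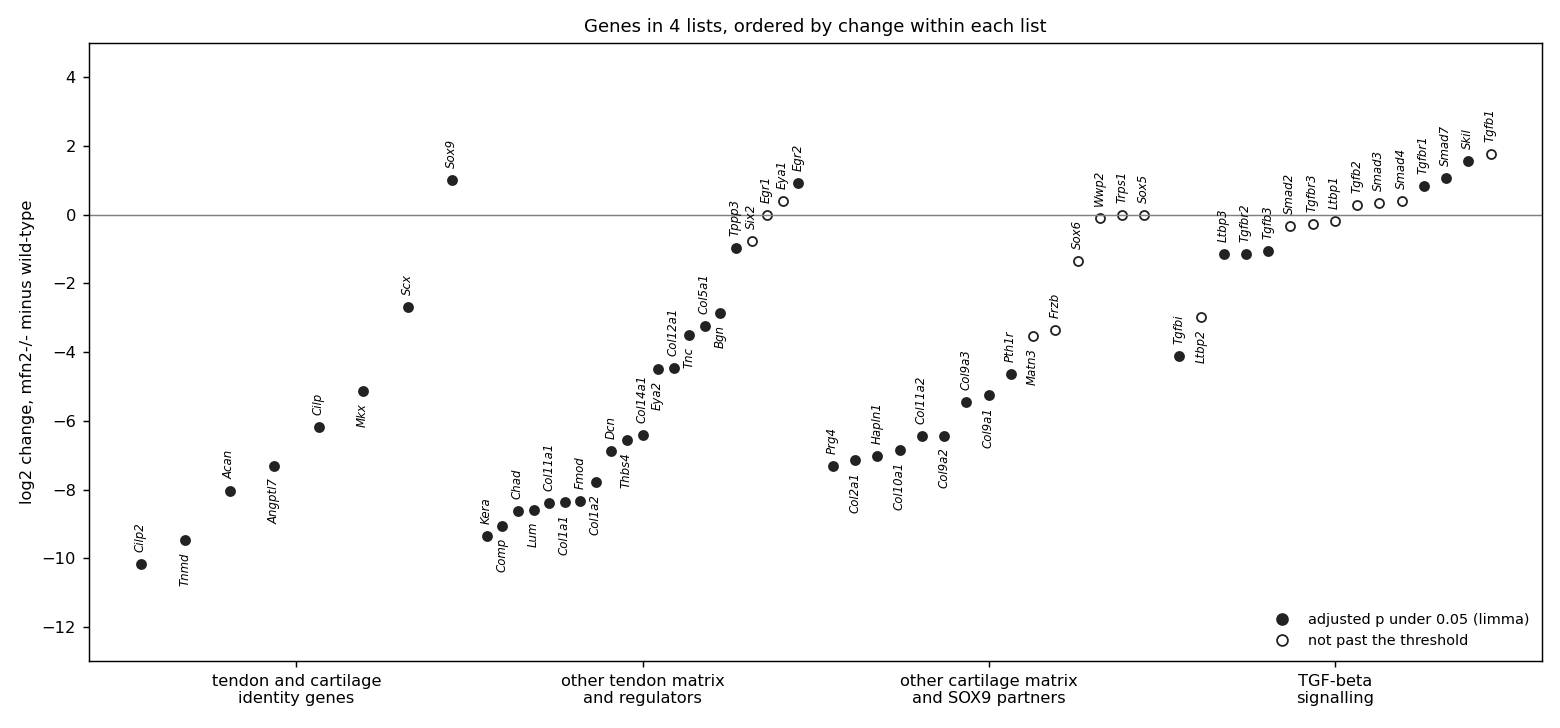
Change of the genes tested, mfn2-/- minus wild-type on the log2 scale, in 4 lists (2 genes not reported here are left out), in order of change within each. Filled points passed an adjusted p of 0.05 by limma and open points did not. The matrix and marker genes of the other tendon and other cartilage lists lie between -0.98 and -9.34, the regulators in both of those lists other than Eya2 lie between -1.35 and 0.91, and TGF-beta genes lie on both sides.

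Relatives of the 8 genes by protein family were read as well. Among the 8 family members tested, 3 fell and 0 rose, where 6.36% of all genes tested fell and 3.99% rose. Angptl1 and Angptl2, related to Angptl7, changed by -3.68 (limma adjusted p 0.000832) and -2.61 (3.22e-05), and Angptl4 changed by 0.54 (0.199). Vcan, the versican gene and a relative of Acan, measured 1067, 1256, 1068 and 1161 in wild-type and 74.7, 108.2, 478.3 and 263.9 in mfn2-/- ASCs (log2 change -2.66, limma adjusted p 0.00224). It was thus kept at 20.3% of wild-type where Acan was at 0. Lect1, the gene of chondromodulin and the paralogue of Tnmd, was weak at 33.7 ± 35.8 and did not pass (log2 change -3.73, limma adjusted p 0.114). Sox8, of the same SOX group as Sox9, did not pass (log2 change -1.27, limma adjusted p 0.0663). Irx3 (1.75) and Irx5 (-1.45), homeobox genes related to Mkx, did not pass. Tcf15, Angptl6, Sox10, Ncan and Bcan were under the filter and were not tested.

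Markers of other cell types moved beside these genes. Beside the marker counts given here and in the next paragraph, 6.36% of all genes tested fell and 3.99% rose. Of 6 fibroadipogenic markers tested, genes of the interstitial fibroblast-like cells of muscle, 3 fell and 0 rose, and the summed level of the 7 listed was 4063 to 5873 in wild-type and 644 to 806 in mfn2-/- libraries. Pdgfra, which defines these cells, measured 2531 ± 695 against 31.95 ± 26.5 (log2 change -7.25, limma adjusted p 0.000405). Pi16, another of these markers, changed by -6.46 and passed the filter only through its wild-type values. The count of 3 that fell thus describes the list and supports nothing further. Dpt (-1.66), Ly6c1 (0.66) and Ly6a (2.08) did not pass, so the summed level mostly follows Pdgfra and Cd34. Cd34, whose protein the sort selected against, ran from 1415 to 1992 in wild-type and from 359 to 700 in mfn2-/- libraries (log2 change -1.90). In the study CD34 marked quiescent muscle stem cells, so its gene is not particular to fibroadipogenic cells. The part of fibroadipogenic cells in the fall of the tendon and cartilage genes was not tested.

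Of 12 muscle stem cell and myoblast markers, 4 rose (Sdc4, Des, Vcam1 and Myod1) and 0 fell, with a sum of 12724 to 16859 in wild-type and 30613 to 43231 in mfn2-/- libraries. Pax7, which defines muscle stem cells, was detected in all 8 libraries and measured 662 ± 45.9 and 715 ± 96.1 (log2 change 0.10). The list's median change was 0.09, and 5 of the 12 were negative, among them Chodl (-0.19), Itga7 (-0.87), Megf10 (-0.37) and Myog (-1.37), which did not pass. DESeq2 called 2 of the 12 lower, and the sum mostly follows Sdc4 and Des. Myod1, the myogenic determination factor, was also detected in all 8, at 172 ± 56.6 and 828 ± 110. Of 5 endothelial markers 0 passed the test, with sums of 537 to 958 and 699 to 1206. Of 3 macrophage and blood markers tested 0 passed, with sums over the list of 29.4 to 93.2 and 71.3 to 98.7, and Emr1 was at 0 in every wild-type library and in 3 of 4 mfn2-/- libraries. Ptprc, which defines blood cells, measured 0, 0, 0 and 1.60 in wild-type and 13.3, 15.0, 12.5 and 0 in mfn2-/- libraries. Of 4 mural markers 1 (Cspg4) fell, with sums of 1501 to 2575 and 792 to 1149. Of 3 Schwann cell markers 0 passed (230 to 561 and 218 to 434), and of 5 myofiber markers 1 (Myh4) rose (801 to 1779 and 1837 to 2921). Of the osteoblast markers 1, Ibsp, was tested and did not pass (-3.36), with sums of 4.55 to 48.2 and 0 to 20.003. Sp7, the osteoblast-defining factor, was under the filter and not tested. It was at 0 in every mfn2-/- library and at 1.04 to 5.88 in wild-type libraries, from 1 to 11 reads each. These values lie near the floor. What share of the differences these cells carry was not tested.

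**Figure D4:**
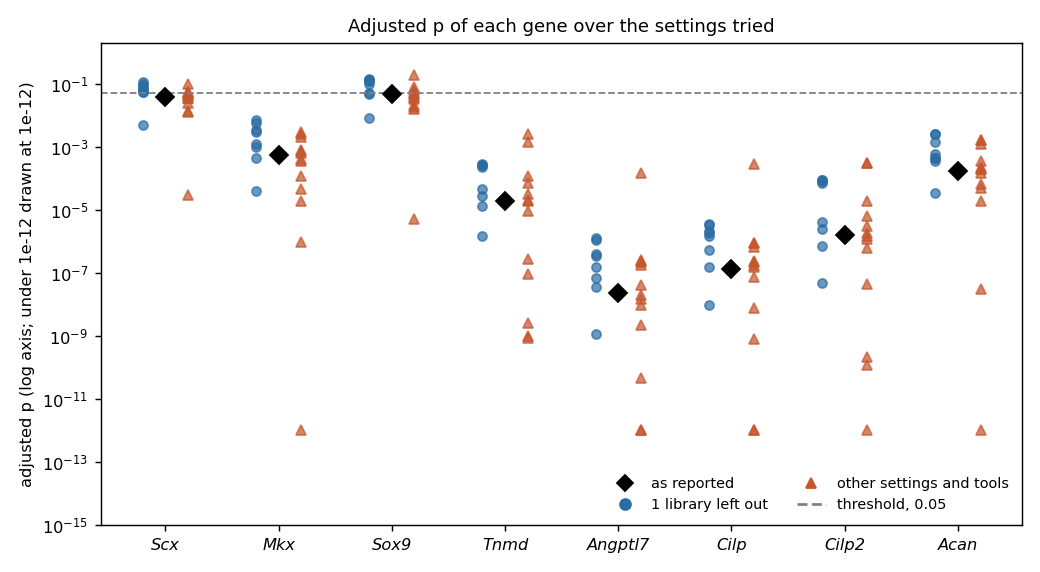
Adjusted p of each gene on a log axis, as reported (diamonds), with 1 library left out (circles) and under other settings or tools (triangles). The dashed line is the threshold of 0.05, and values under 1e-12 are drawn at 1e-12. Scx and Sox9 lie on both sides of the line, and the other 6 genes stay under it.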

How the data were processed

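Total RNA of ASCs was made into libraries with a stranded low-input kit and sequenced by the authors, in 4 wild-type and 4 mfn2-/- samples, grouped by their titles. The submitters' processing notes name Trim Galore, HISAT2, featureCounts, DESeq2 and mm9, without versions. Each deposited column holds the signal of 1 library, as read counts that the authors had normalized to a size factor of that library, and 0 columns were left unmapped. In each column 100% of values were whole multiples of 1 step (tolerance 0.01 of a read), which gave back the reads and the depth. The shallowest libraries, and so the least precise for weak genes, are replicate 1 of wild-type and replicate 4 of mfn2-/-. Floors cover counting error only, since reads carried no molecular identifiers, and the 95% intervals of changes are those of limma, from the spread between libraries.

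Values were tested with limma 3.58.1 (trend, R 4.3.3) on log2(value + 1), genes with a mean of at least 10, two-sided, Benjamini-Hochberg threshold 0.05. Single values also had an exact permutation test over 70 arrangements, with 0.0286 the smallest p it can give. edgeR 4.0.16 and DESeq2 1.42.0 on the recovered reads, other pseudocounts (0.1 and 10), filters, scalings and left-out libraries were alternatives. The fits were tested on simulated data. Figures were drawn with Python 3.11.15. The genes and lists were chosen with earlier results of these data known, and the comparison of wild-type libraries by Y-linked reads and the division of lists into regulators and other genes were added after the values had been seen. Besides the 8 genes, up to 4 genes past the threshold and up to 4 not past it were named from the tendon, cartilage and TGF-beta lists, most abundant first, with all relatives and overlapping genes and the 3 nearest profiles per gene. Eya2 and Egr2, the tendon regulators past the threshold, and the further TGF-beta genes past it were named beyond this rule. Marker lists are given by counts and sums with genes past the threshold, defining genes and examples that did not pass. From the former lists, 2 genes that did not pass the test are not reported here. Folds of means with single libraries left out were also added after the values had been seen.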

Additional observations from a re-analysis of the deposited data

Results flagged for a closer look

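Among 16 groups of 4 libraries (8 genes in 2 groups), 1 held a library far from the others by Dixon's test. Cilp2 in mfn2-/- replicate 1 measured 7.33 normalized counts, from 11 reads, where the other 3 mfn2-/- libraries were at 0. With the other 3 libraries at 0, any count above 0 in the remaining library is flagged by this rule. No chance rate is therefore set beside it. Acan was at 0 in each mfn2-/- library, so that group could not be flagged.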

How the results depend on the processing

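Under 21 alternatives each, Mkx, Tnmd, Cilp, Cilp2, Acan and Angptl7 kept direction and call, and 0 of the 8 genes reversed. Scx lost its call in 10, among them a pseudocount of 0.1 (adjusted p 0.0559), no trend (0.0969) and edgeR (0.0557), and its log2 change ran from -3.89 with library weights to -1.94 without mfn2-/- replicate 2. Sox9 lost its call in 10, and the number of the 8 genes called higher was 0 with a pseudocount of 0.1, with no filter, with quantile normalization and with no trend, and 0 to 1 with single libraries left out. The number called lower was 6 or 7 throughout. The tendon list held 1 higher gene as reported, 2 with upper-quartile scaling or library weights, 0 with no trend or a log2 change over 1, and 0 to 1 with single libraries left out. In the TGF-beta list, higher genes numbered 3 as reported, 1 with no filter, 0 with no trend and 1 to 3 with single libraries left out, and lower genes 4 as reported and 1 with no trend. The causes were not tested. Within the 4 libraries without Y-linked reads, Scx (adjusted p 0.401), Mkx (0.104), Sox9 (0.777) and Acan (0.122) did not pass, with 2 libraries a group. These libraries include the shallowest of each group. The median change of all genes moved from -0.16 to 0.04 with upper-quartile scaling and to 0.13 with quantile normalization. Over all genes, 1217 calls became 3037 with library weights, 633 with no trend, 1738 with DESeq2, 671 without wild-type replicate 3 and 749 without wild-type replicate 4.

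With the replicate number as a block, 1043 genes were called and the 8 genes again gave 7 lower and 1 higher (Scx adjusted p 0.0491, Sox9 0.0181). Deviations of same-numbered libraries correlated at -0.03, -0.05, 0.04 and -0.11, and 0 libraries correlated best with their own number. Each block joined a library with Y-linked reads to one without. With so few libraries, these correlations cannot settle whether same-numbered libraries were paired, and the labels do not say. Depth limits weak genes most in the shallowest libraries, where 3 reads are worth 6.82 and 5.50 normalized counts.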
